A study of Mus musculus with 12 samples.

Results

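The genes described here are 34 genes chosen as a module of glycolysis and hypoxia: 21 of glucose uptake and glycolysis, and 13 other genes that are classically induced by low oxygen. A gene counted as measured when the array annotation mapped at least 1 probe set to it alone, and the probe set with the highest mean over the 12 arrays was used. By this rule 31 of the 34 were measured, 19 of glycolysis and 12 of the other hypoxia genes, out of 18194 measured genes in all. Gpi1 (glucose-6-phosphate isomerase) and Eno1 (enolase 1) had no probe set named to them alone. The 3 probe sets of Bnip3l (a mitophagy receptor) were shared with another gene. The choice used gene names and not measured values, but it was made with earlier results of these data known.

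Glycolysis breaks glucose down to pyruvate in the cytosol, and cells make more of its enzymes when oxygen is short. The switch is the hypoxia-inducible factor (HIF), a dimer whose alpha subunit is hydroxylated by the EGLN oxygen sensors, bound by VHL and destroyed while oxygen is present. When the alpha subunit persists, the dimer binds a short DNA core in the promoters and enhancers of glucose transporters, glycolytic enzymes, Pdk1, Vegfa and many others. In the mouse the visceral yolk sac feeds the embryo and forms the first blood islands and vessels, so oxygen supply and metabolism change there as circulation begins.

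Expression was measured on Affymetrix mouse arrays in yolk sacs of 4 groups of 3 samples. The groups were wild type at embryonic day 8.5 (E8.5), Norrin at E8.5, wild type at E10.5 and Norrin at E10.5, and every group mixed both sexes and had a C57Bl6/129 mixed background. Norrin is the product of the gene Ndp and acts outside the cell on Frizzled4, a Wnt receptor. The Norrin yolk sacs, labelled Z/Norrin, over-expressed it ectopically from a conditional allele. Each sample was a pool of the yolk sacs of 3 to 5 embryos, so a replicate is a pool and not an embryo. The sources used here name neither the Cre driver nor the cells that made Norrin. The Ndp probe set read 4.45 to 4.68 on the log2 scale in all 12 pools, and it is not known whether it can see the transgene, so it does not check the labels. All values are log2 expression values, on which a difference of 1 is a doubling. Apart from remarks on a high or low signal, a probe set's level is compared only with its own level in other pools.

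The visceral endoderm markers, which define this tissue, were high in every pool, with list means of 12.10 to 12.97. The Norrin E10.5 replicate 2 stood apart from the other pools in markers of other cell types. Its mean over 9 trophoblast markers was 7.97, against 5.37 to 6.10 in the other E10.5 pools, and Tpbpa, a spongiotrophoblast marker, read 11.90 against 5.63 to 6.55. Its mean over 12 immediate early and heat shock genes was 10.01, against 8.38 to 8.79. The Norrin E8.5 replicate 2 also had a raised trophoblast mean, 7.09 against 5.498 to 6.001 in the other E8.5 pools. The gap between 3′ and 5′ Gapdh control probe sets, a sign of RNA quality, was 0.61 and 0.50 in the wild type and Norrin E8.5 replicates 2 and 0.02 to 0.15 elsewhere. The same gap for actin was 0.70 and 0.45 in those pools and 0.15 to 0.49 elsewhere, so actin set only the wild type pool apart. Counts of calls at E10.5 are given with and without the Norrin E10.5 replicate 2; the part of these transcripts in the results was not tested.

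At E10.5, 8 of the 31 genes rose in Norrin yolk sacs and none fell. Of the 19 glycolysis genes, 4 rose (Hk2, Pfkl, Pfkfb3 and Slc2a1) and 0 fell, and of the 12 other hypoxia genes, 4 rose (Ddit4, P4ha1, Adm and Kdm3a) and 0 fell. These are 21.1% and 33.3% of the lists, beside 1.85% of all 18194 genes that were called higher and 2.22% called lower. The threshold was an adjusted p of 0.05 in limma over all genes. The median log2 difference was 0.36 over the glycolysis genes and 0.89 over the other hypoxia genes, beside -0.00 over all genes. Differences were above 0 for 17 of 19 and for 12 of 12 genes, beside 49.0% of all genes.

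**Figure D1:**
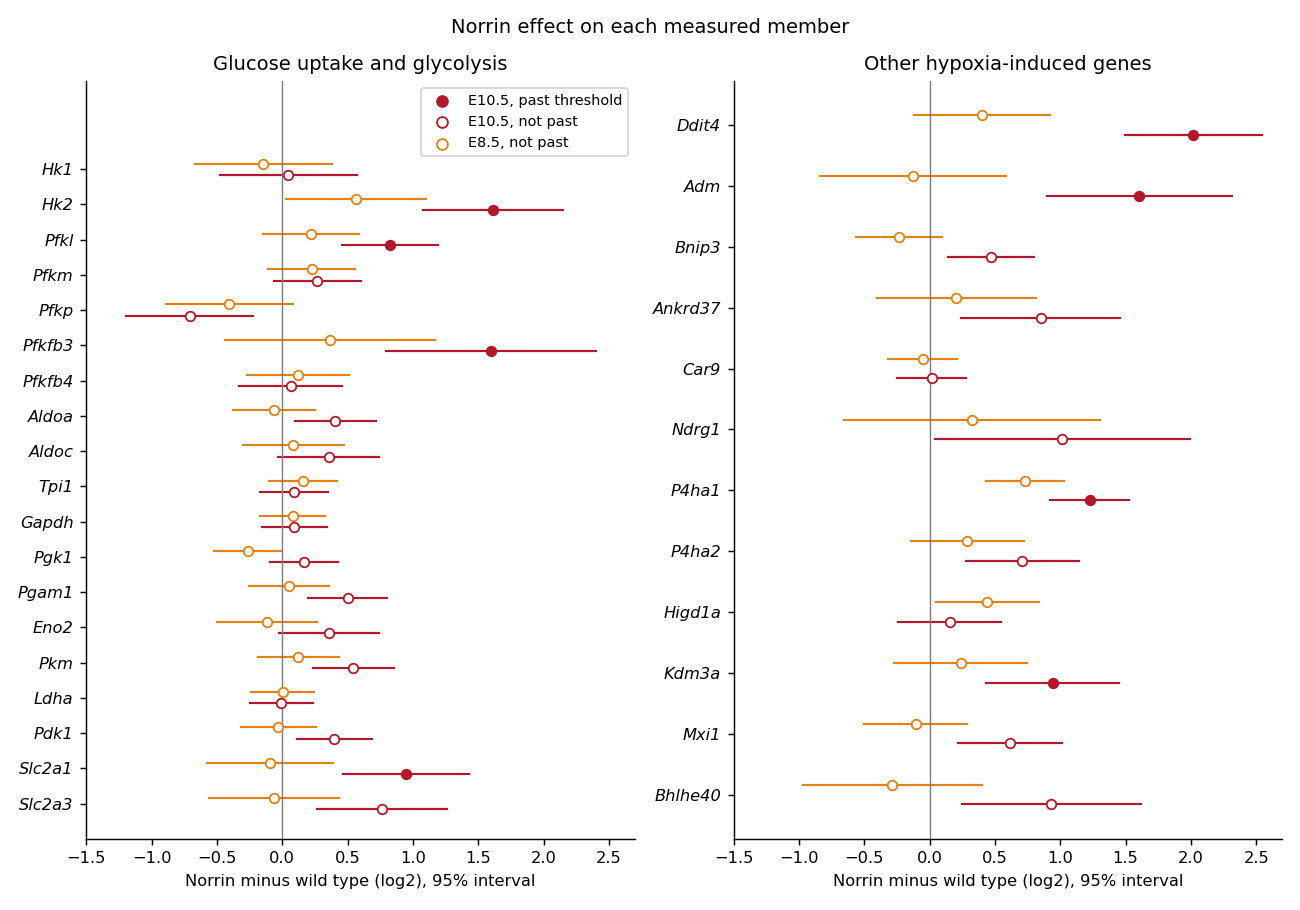
Norrin minus wild type on the log2 scale for each of the 31 measured genes, at E8.5 (orange) and E10.5 (red), with 95% intervals from the limma fit; filled points passed an adjusted p of 0.05. At E10.5 the points run from -0.71 for Pfkp to 2.02 for Ddit4 and 8 are filled, while at E8.5 none is.

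Glucose enters the cell through the facilitated transporters GLUT1, made by Slc2a1, and GLUT3, made by Slc2a3. Slc2a1 read 12.55, 12.34 and 12.62 in the wild type E10.5 pools and 13.30, 13.41 and 13.64 in the Norrin pools. The groups did not overlap, and the gene rose by a log2 difference of 0.95 ± 0.22 (SE, n = 3 pools a group), 1.93-fold, with an adjusted p of 0.0318. Its other 2 probe sets gave larger differences, 1.29 and 1.17, also without overlap. Slc2a3 read 13.73, 12.67 and 13.70 in wild type and 14.10, 14.03 and 14.28 in Norrin. All Norrin pools were above all wild type pools, but the difference of 0.77 ± 0.23 had an adjusted p of 0.0959 (0.0167 with the replicate number as a block). This probe set lay near the top of the scale, where array maxima were 14.59 to 14.94. The other 3 probe sets of Slc2a3, which lay lower, gave 0.89, 1.74 and 1.96, each without overlap, and the mean over all 4 gave 1.34 with an adjusted p of 0.0435.

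Hexokinases trap glucose by phosphorylation; Hk1 is the broadly expressed form and Hk2 the inducible form. Hk2 read 8.64, 8.51 and 8.65 in wild type and 10.002, 10.31 and 10.33 in Norrin at E10.5. Every Norrin pool was above every wild type pool, and Hk2 rose 3.06-fold, by 1.61 ± 0.25 on the log2 scale, with an adjusted p of 0.0033. Hk1 read 8.89, 9.03 and 9.53 in wild type and 8.99, 9.47 and 9.13 in Norrin. The groups overlapped, with a difference of 0.05 (95% interval -0.48 to 0.57).

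Phosphofructokinase commits glucose to glycolysis and is built from liver (Pfkl), muscle (Pfkm) and platelet (Pfkp) subunits. Pfkl read 10.78, 10.90 and 10.47 in wild type and 11.76, 11.59 and 11.27 in Norrin. The groups did not overlap, and Pfkl rose by 0.83 ± 0.17 (1.77-fold, adjusted p = 0.0167). Pfkm, with 9.40, 8.87 and 9.19 in wild type and 9.67, 9.22 and 9.36 in Norrin, overlapped between groups (0.27, adjusted p = 0.5165). Pfkp read 9.81, 10.02 and 9.52 in wild type and 8.85, 9.61 and 8.75 in Norrin. Here the Norrin replicates 1 and 3 were below all wild type pools and replicate 2 was not. The difference of -0.71 ± 0.22 had an adjusted p of 0.1219, and of 0.0159 with the replicate number as a block. Without the Norrin E10.5 replicate 2 it was -0.98, with an adjusted p of 0.0169.

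PFKFB enzymes set the level of fructose 2,6-bisphosphate, the strongest activator of phosphofructokinase. Pfkfb3 read 6.70, 6.60 and 6.55 in wild type and 7.86, 8.89 and 7.89 in Norrin. The Norrin replicate 2 was the highest, the groups did not overlap, and Pfkfb3 rose by 1.600 ± 0.369 on the log2 scale (3.03-fold, adjusted p = 0.0307). Its other probe set gave 0.34, also without overlap. The signal of the probe set used was low, with a mean of 7.12 over the 12 arrays against 7.68 for the median gene. Pfkfb4 read 8.36, 7.92 and 8.13 in wild type and 8.29, 8.22 and 8.10 in Norrin, a difference of 0.06 (95% interval -0.33 to 0.46).

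**Figure D2:**
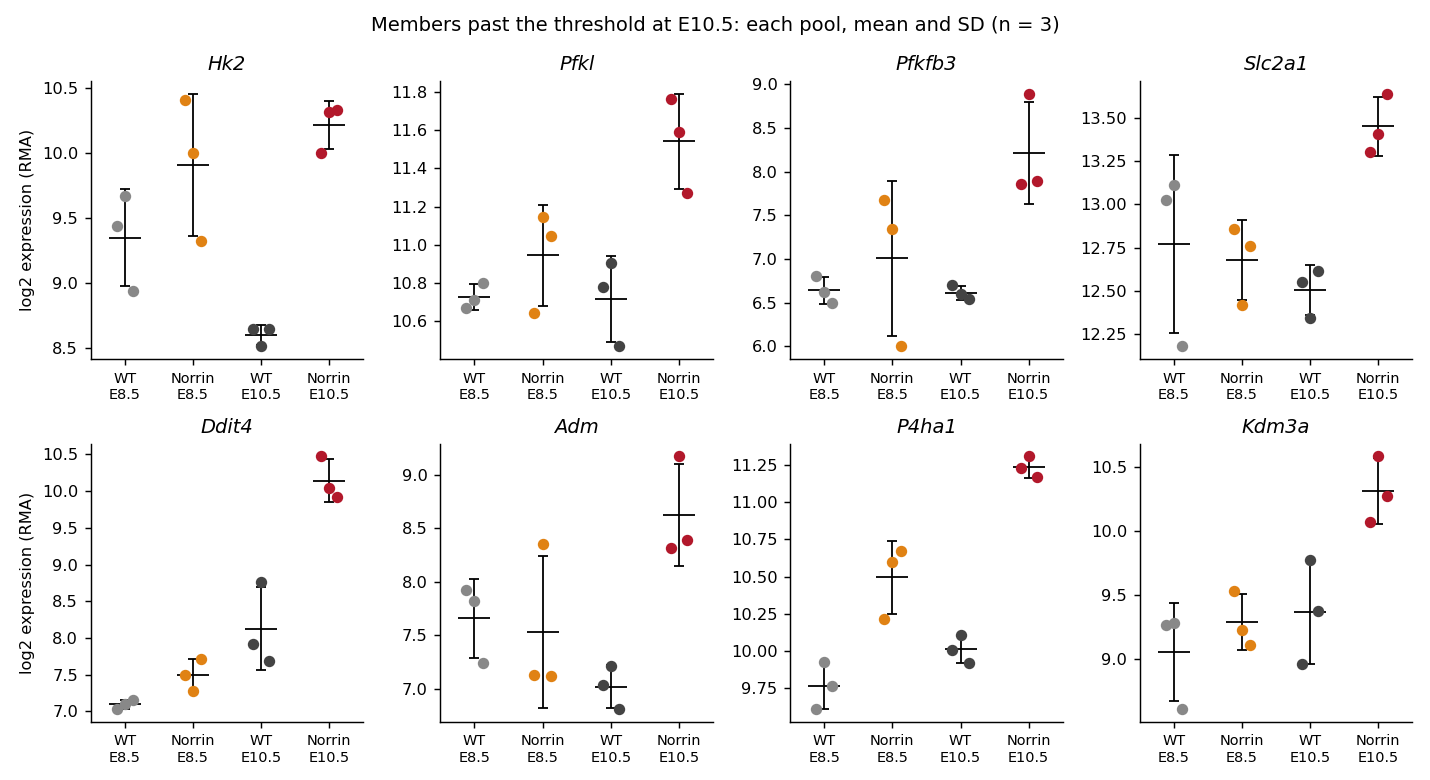
Log2 expression of the 8 genes that passed the threshold at E10.5, with 1 point per pool in the 4 groups; the horizontal bar is the mean of 3 pools and the error bar its SD. In each panel the 3 Norrin E10.5 pools lie above the 3 wild type E10.5 pools, and each panel has its own scale.

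The middle and lower steps of the pathway did not pass at E10.5. Aldolase A (Aldoa), which splits fructose 1,6-bisphosphate, differed by 0.41 ± 0.14 (adjusted p = 0.1759), with pools at 12.55 to 12.78 in wild type and 12.90 to 13.19 in Norrin. Aldoc, its brain-type isozyme, differed by 0.36, and Eno2, the neuronal enolase, by 0.36. The signal of Aldoc and Eno2 was low, with means of 6.39 and 5.22 over the 12 arrays against 7.68 for the median gene. Triosephosphate isomerase (Tpi1) differed by 0.09, Gapdh by 0.09 and phosphoglycerate kinase (Pgk1) by 0.17. Their 95% intervals reached no higher than 0.35, 0.34 and 0.43, so differences as large as that of Hk2 lie outside them. Lactate dehydrogenase A (Ldha), which regenerates NAD from pyruvate and is a textbook HIF target, read 13.33, 13.22 and 13.13 in wild type and 13.27, 13.34 and 13.06 in Norrin. The groups overlapped and the difference was -0.01 (95% interval -0.25 to 0.23). Gapdh, Pgk1 and Ldha averaged 13.92, 13.40 and 13.23 in wild type at E10.5, near the top of the scale, where array maxima were 14.59 to 14.94. Whether this narrowed their differences was not tested. The lowest Pgk1 probe set, with a mean of 10.85 over the 12 arrays, gave 0.21.

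Phosphoglycerate mutase (Pgam1), pyruvate kinase M (Pkm) and pyruvate dehydrogenase kinase 1 (Pdk1, which inhibits pyruvate dehydrogenase) lay just outside the threshold or further. Pgam1 read 11.82, 11.80 and 11.86 in wild type and 12.28, 12.44 and 12.26 in Norrin, a difference of 0.50 ± 0.14. Pkm read 11.90, 11.66 and 11.65 in wild type and 12.47, 12.40 and 11.97 in Norrin, a difference of 0.54 ± 0.14. Pdk1 read 9.52, 9.42 and 9.52 in wild type and 9.95, 9.78 and 9.91 in Norrin, a difference of 0.40 ± 0.13. In all 3 genes the groups did not overlap. Their adjusted p-values were 0.0725, 0.0572 and 0.1473, and 0.0115, 0.0097 and 0.0351 with the replicate number as a block.

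Isozymes of the same step were compared directly at E10.5, in 8 pairs chosen after their values were seen. For each pool the log2 value of 1 isozyme was subtracted from that of the other, and the 3 Norrin pools were set against the 3 wild type pools in a two-sided exact permutation test. With 3 against 3 the smallest p it allows is 0.1, so no pair could pass. The Norrin effect on Hk1 was 1.57 below that on Hk2 on the log2 scale, an effect difference of -1.57 without overlap between groups (exact p = 0.1, adjusted over 8 pairs 0.2). The effect on Pfkl exceeded that on Pfkp by 1.54, and that on Pfkfb3 exceeded that on Pfkfb4 by 1.54, both without overlap and with the same exact p. Pfkl and Pfkm differed in their effect by 0.56 with overlapping groups (exact p = 0.2), and Aldoa and Aldoc by 0.05 (exact p = 1.0). Slc2a1 and Slc2a3 differed by 0.18 (exact p = 0.6) with the Slc2a3 probe set near the top of the scale. Its probe sets at 1.74 and 1.96 lay above all those of Slc2a1, so the direction turned with the probe set.

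Among the other hypoxia genes, Ddit4 (REDD1), which restrains the growth kinase complex mTORC1, had the largest difference. It read 7.92, 8.76 and 7.69 in wild type and 10.47, 10.04 and 9.92 in Norrin at E10.5. All Norrin pools were above all wild type pools, the wild type replicate 2 was the highest of its group, and Ddit4 rose 4.05-fold (2.02 ± 0.24, adjusted p = 0.00095). Adm encodes adrenomedullin, a vasodilator peptide needed for vascular development. It read 7.04, 7.21 and 6.81 in wild type and 8.31, 9.17 and 8.39 in Norrin. The groups did not overlap, the Norrin replicate 2 was the highest, and Adm rose 3.04-fold (1.61 ± 0.33, adjusted p = 0.0164); its other probe set gave 2.06.

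P4ha1 and P4ha2 encode catalytic subunits of the collagen prolyl 4-hydroxylase, which stabilises the collagen triple helix. P4ha1 read 10.01, 10.11 and 9.92 in wild type and 11.23, 11.31 and 11.17 in Norrin. The spread within each group was small, the groups were far apart, and P4ha1 rose 2.33-fold (1.22 ± 0.14, adjusted p = 0.00069). P4ha2 read 10.28, 10.35 and 10.04 in wild type and 10.89, 11.17 and 10.73 in Norrin. These groups did not overlap either, with a difference of 0.71 ± 0.20 (adjusted p = 0.0753, and 0.0019 with the block). The effect on P4ha1 exceeded that on P4ha2 by 0.52, without overlap (exact p = 0.1). Kdm3a, a histone H3 lysine 9 demethylase, read 8.96, 9.77 and 9.37 in wild type and 10.07, 10.58 and 10.27 in Norrin. The groups did not overlap, and Kdm3a rose 1.92-fold (0.94 ± 0.23, adjusted p = 0.0440).

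Of the remaining hypoxia genes, 5 more had an adjusted p above the threshold without the replicate number as a block and below it with the block. Ndrg1, a stress-responsive gene, read 8.71, 10.22 and 9.03 in wild type and 9.80, 11.39 and 9.82 in Norrin. The replicates 2 were the highest in both genotypes, so the groups overlapped, while the difference within each replicate number was 1.09, 1.16 and 0.79. Bhlhe40, a transcriptional repressor of the clock and of differentiation, had the same shape, with 8.50, 9.37 and 8.49 in wild type and 9.18, 10.56 and 9.42 in Norrin. Its differences within a number were 0.68, 1.18 and 0.93. The adjusted p-values were 0.3250 and 0.0143 with the block for Ndrg1, and 0.1529 and 0.0012 for Bhlhe40. Ankrd37 (0.85, adjusted p = 0.1424 and 0.0022 with the block), the MAX-binding repressor Mxi1 (0.62, 0.0940 and 0.0230) and the mitophagy receptor Bnip3 (0.47, 0.1285 and 0.0229) moved across the threshold in the same way. Car9 is a cell surface carbonic anhydrase widely used as a marker of tumour hypoxia. It read 6.60 to 6.84 in wild type and 6.62 to 6.85 in Norrin, a difference of 0.02 (95% interval -0.25 to 0.28). The signal of Car9 was low, with a mean of 6.67 over the 12 arrays against 7.68 for the median gene. Ankrd37, at 7.06, also lay below the median gene. Whether low signal narrowed their differences was not tested. Higd1a, a mitochondrial hypoxia gene, differed by 0.15 with overlapping groups.

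With the replicate number as a block, 8 of 19 glycolysis genes and 10 of 12 other hypoxia genes were called higher and 1, Pfkp, lower. Over all genes the block also raised the calls, to 6.39% higher and 6.80% lower. Without a fit, 14 of 19 glycolysis genes and 10 of 12 other hypoxia genes were higher in Norrin within each of the 3 replicate numbers, beside 24.3% of all genes, and 1 gene, Pfkp, was lower in each, beside 24.1%. Groups that did not overlap, with Norrin higher, were found for 9 of 19 and 7 of 12 genes, beside 11.4% of all genes, and with Norrin lower for 0 of 31, beside 11.5%.

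The Norrin E10.5 replicate 2, the pool set apart by its markers, also had the highest level of the hypoxia genes. The median deviation of the trophoblast markers from the wild type mean was 0.08, 1.22 and -0.19 in the Norrin replicates 1, 2 and 3, and 0.14, -0.25 and 0.11 in wild type. The median deviation of the 12 other hypoxia genes from the wild type mean was 0.64, 1.25 and 0.57 in the Norrin replicates 1, 2 and 3, and -0.07, 0.29 and -0.20 in wild type. For the glycolysis genes it was 0.47, 0.40 and 0.21 in Norrin and 0.06, -0.07 and -0.03 in wild type, where replicate 1 had the highest median. The mean log2 level of the glycolysis genes was highest in replicate 2, at 11.03 against 10.93 and 10.82, so which of the Norrin replicates 1 and 2 was higher depended on the summary. Without it, 3 of the 31 genes were called higher, Hk2 (1.56, adjusted p = 0.0123), Ddit4 (2.07, 0.0026) and P4ha1 (1.19, 0.0028), beside 1.44% of all genes. The medians were then 0.34 for glycolysis and 0.61 for the other hypoxia genes, with 16 of 19 and 10 of 12 differences above 0. Differences without it were 0.80 for Pfkl (adjusted p = 0.0537), 0.97 for Slc2a1 (0.0741), 1.33 for Adm (0.0577), 1.26 for Pfkfb3 (0.0998) and 0.80 for Kdm3a (0.1459).

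Leaving out other E10.5 pools, which also leaves 2 in a group, lowered the calls too, among the members and over all genes. Without the wild type replicate 3 the same 3 genes passed, beside 0.951% of all genes called higher. Without the wild type replicate 1, Pfkl passed beside them (1.3% of all genes), and without the Norrin replicate 1, Adm did (1.02%). Without the wild type replicate 2, 7 genes passed (1.01% of all genes), of which 6 were among the 8 and Mxi1 was not. Without the Norrin replicate 3, 7 passed (0.885% of all genes), of which 5 were among the 8 and Ankrd37 and Pkm were not. Slc2a1 and Pfkfb3 passed in neither. Hk2, Ddit4 and P4ha1 passed in all 24 alternatives run, and Kdm3a in 12 of 24.

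Levels of several cell type marker lists differed between the genotypes at E10.5. Of 18 measured erythroid markers, 12 fell and 0 rose, with list means of 10.01 to 11.14 in wild type and 9.35 to 9.39 in Norrin. Of 12 parietal endoderm markers, 5 rose and 0 fell (10.08 to 10.19 in wild type, 10.98 to 11.01 in Norrin). Of 18 visceral endoderm markers, 4 fell and 0 rose (12.76 to 12.97, and 12.49 to 12.52), and of 14 mesenchyme markers, 3 rose and 0 fell (11.15 to 11.23, and 11.54 to 11.59). Of 8 decidua markers, 1 rose (7.46 to 7.68, and 8.04 to 8.44), and of 15 endothelial markers, 1 rose and 1 fell (8.26 to 8.72, and 8.37 to 8.87). Of 13 macrophage markers 1 fell (7.71 to 8.05, and 7.23 to 7.87), and of 9 trophoblast and 11 embryonic neural markers none passed. Without the Norrin E10.5 replicate 2, 8 erythroid and 3 visceral endoderm markers were called lower, 5 parietal endoderm markers higher, and 0 mesenchyme markers. Without it 1 visceral endoderm, 1 endothelial, 1 decidua and 1 embryonic neural marker (Gata4, Flt1, Prl8a2 and Sox2) were called higher, and 1 endothelial and 1 macrophage marker (Plvap and Fcgr3) lower. These are whole yolk sacs, so fewer cells of a type and less RNA per cell cannot be told apart, and the part of cell makeup in the differences of the glycolysis and hypoxia genes was not tested.

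**Figure D3:**
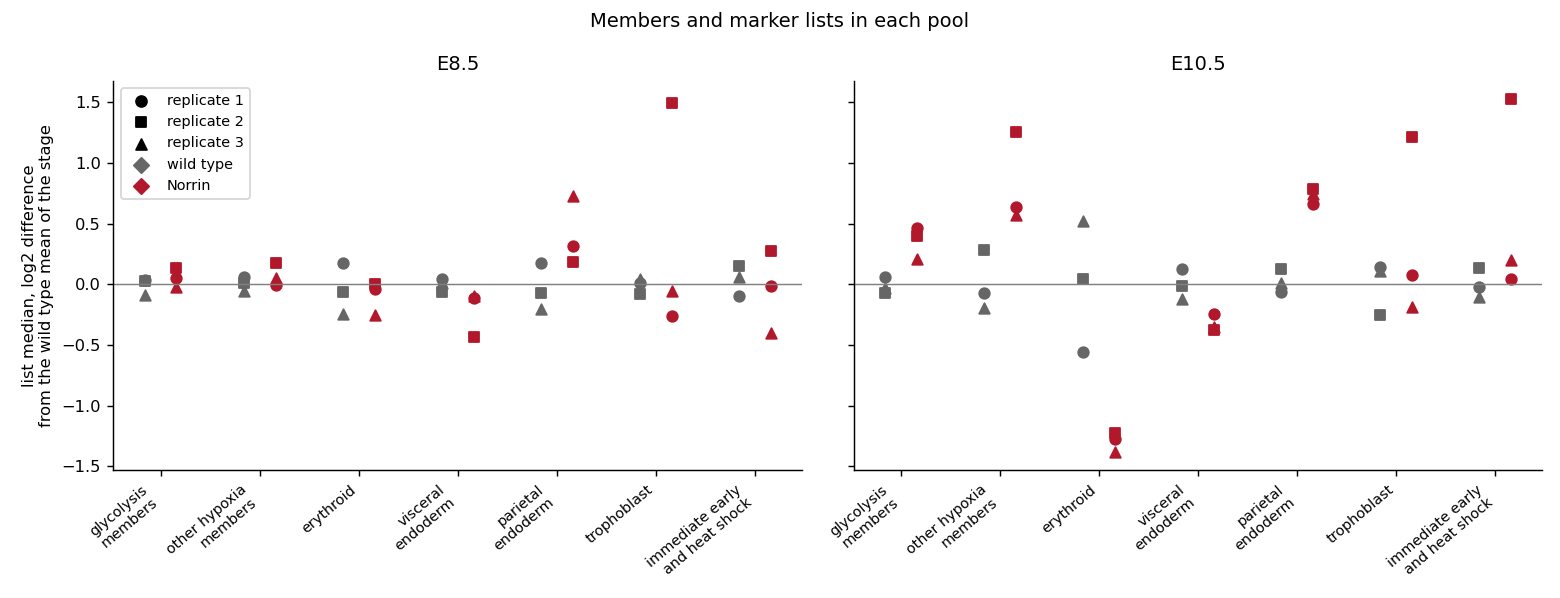
Median log2 difference of each gene list from the wild type mean of the same stage, with 1 point per pool (circle, square and triangle for replicates 1, 2 and 3; grey for wild type, red for Norrin). At E10.5 the Norrin points of both module lists lie above all their wild type points, of which the highest is 0.29; the Norrin replicate 2 stands out at 1.22 for trophoblast and 1.53 for immediate early and heat shock genes.

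Of the 31 genes, 17 had more than 1 probe set, 34 others in all, which the rule did not use. At E10.5, 30 of these 34 were higher in Norrin and 4 lower, and 15 had Norrin above wild type without overlap, 0 the reverse. At E8.5, 20 were higher and 14 lower, with 0 free of overlap. Over all genes, each read by the probe set used, 11.4% were higher and 11.5% lower without overlap at E10.5. At E8.5 these shares were 5.89% and 6.02%. No share was taken over all unused probe sets. Probe sets of a gene share its RNA and are not replicates of the condition. Those of Pfkl gave 0.83, 0.75 and 0.44, those of Pfkp -0.71, -0.45 and -0.12, and those of P4ha1 1.22 and 1.52. At E10.5 the probe sets differed in sign for Hk1 and Aldoc; at E8.5 they did so for 9 genes.

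**Figure D4:**
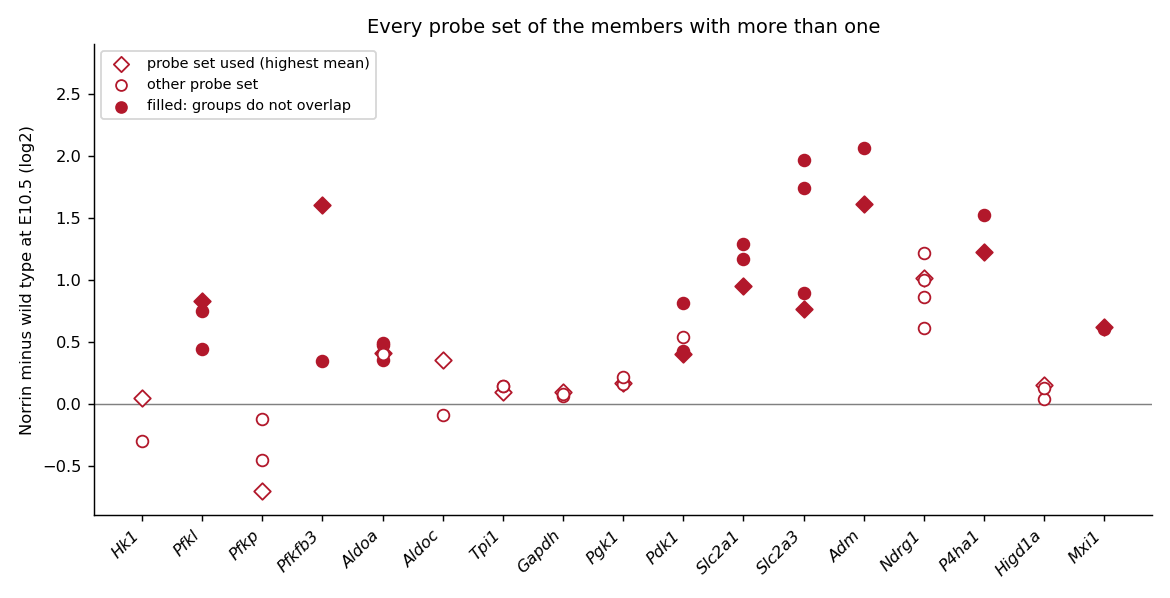
Norrin minus wild type at E10.5 on the log2 scale for every probe set of the 17 genes with more than 1; the diamond is the probe set used, circles are the others, and filled marks are those whose groups do not overlap. Of the 34 circles, 30 lie above 0, and those of Slc2a1, Adm and P4ha1 lie above the probe set used.

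HIF binds the core ACGTG or GCGTG, so the bases before the start sites of these genes were searched for either core on both strands. The sequences are from RefSeq on mouse build GRCm38.p6, 250 bases ending just before the first listed start. They are printed 5′ to 3′ on the gene's strand for 4 genes that rose (Ddit4, Hk2, Slc2a1 and Adm) and for Bnip3 and Pgk1, chosen among the genes that did not pass because they hold several cores. Capitals mark the cores. CACGT and CACGC are the same cores read on the opposite strand.
Ddit4, chr10:59951771-59952020, minus strand: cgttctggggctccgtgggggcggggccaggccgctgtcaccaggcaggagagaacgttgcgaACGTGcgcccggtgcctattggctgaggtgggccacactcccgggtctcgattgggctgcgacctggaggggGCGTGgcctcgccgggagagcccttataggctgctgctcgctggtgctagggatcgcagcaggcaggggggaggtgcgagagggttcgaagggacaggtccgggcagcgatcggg
Hk2, chr6:82774455-82774704, minus strand: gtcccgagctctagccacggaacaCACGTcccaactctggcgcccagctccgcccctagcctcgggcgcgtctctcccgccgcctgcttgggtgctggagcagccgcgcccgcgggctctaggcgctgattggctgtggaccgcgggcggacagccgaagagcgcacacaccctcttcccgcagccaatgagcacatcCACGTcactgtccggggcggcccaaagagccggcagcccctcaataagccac
Slc2a1, chr4:119108495-119108744, plus strand: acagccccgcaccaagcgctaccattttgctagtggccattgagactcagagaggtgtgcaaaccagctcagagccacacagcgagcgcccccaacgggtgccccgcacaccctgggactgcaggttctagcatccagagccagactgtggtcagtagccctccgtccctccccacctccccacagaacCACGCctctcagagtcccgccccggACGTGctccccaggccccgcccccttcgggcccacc
Adm, chr7:110627407-110627656, plus strand: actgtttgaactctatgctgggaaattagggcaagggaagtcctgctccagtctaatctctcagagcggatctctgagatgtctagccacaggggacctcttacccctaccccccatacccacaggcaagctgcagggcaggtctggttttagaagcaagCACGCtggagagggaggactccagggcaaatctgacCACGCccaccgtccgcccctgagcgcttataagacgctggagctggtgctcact
Bnip3, chr7:138909507-138909756, minus strand: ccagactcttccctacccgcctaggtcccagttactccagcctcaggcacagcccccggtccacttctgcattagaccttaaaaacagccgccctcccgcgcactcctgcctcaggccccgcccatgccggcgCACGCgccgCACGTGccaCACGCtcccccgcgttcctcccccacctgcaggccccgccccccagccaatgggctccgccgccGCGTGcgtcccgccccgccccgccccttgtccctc
Pgk1, chrX:106186850-106187099, plus strand: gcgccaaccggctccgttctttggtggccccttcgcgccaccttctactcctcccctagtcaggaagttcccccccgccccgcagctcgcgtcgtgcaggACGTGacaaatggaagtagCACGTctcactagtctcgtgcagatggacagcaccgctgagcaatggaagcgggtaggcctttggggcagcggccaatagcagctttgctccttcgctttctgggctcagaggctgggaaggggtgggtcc

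The Ddit4 window held ACGTG 187 bases and GCGTG 115 bases before the start. The Hk2 window held ACGTG on the opposite strand, 226 and 52 bases before the start, and that of Slc2a1 held GCGTG on the opposite strand at 61 bases and ACGTG at 36. The Adm window held GCGTG on the opposite strand at 90 and 54 bases. In Bnip3 the capitals include a run where ACGTG on both strands overlaps, at 108 and 107 bases, beside 3 GCGTG cores. In Pgk1 ACGTG stood at 150 bases and on the opposite strand at 131. The window of Ldha, not printed, held ACGTG 5 times over both strands, the most of any member. Ldha did not pass at E10.5 in limma, with a difference of -0.01. The other 4 genes that rose lie, as whole genes in RefSeq on the same build, at chr10:77986947-78009807 (Pfkl), chr2:11471430-11554071 (Pfkfb3), chr10:59323197-59373304 (P4ha1) and chr6:71588970-71632990 (Kdm3a). A promoter was listed for 28 of the 31 genes. Either core was found in 13 of 18 glycolysis genes (72.2%) and 9 of 10 other hypoxia genes (90.0%), beside 49.7% of 14453 measured genes with a listed promoter. It was found in 8 of the 8 genes that rose at E10.5 and in 14 of the 20 that did not pass. The 6 without a core in the window were Hk1, Aldoa, Tpi1, Eno2, Pkm and Mxi1. Of these, Hk1 and Pkm had 2 listed starts and Aldoa and Mxi1 had 3. Only the window of the first listed start of each gene was searched. These cores contain CpG, and the median number of CpG in the window was 13 for all genes, 13 for glycolysis and 20.5 for the other hypoxia genes. It was 21 for the 8 that rose and 14.5 for the 20 that did not pass. A match is letters in a window and does not show binding.

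Other genes of the same biology, listed beside the module, were read at E10.5 in the same fit. Of 33 measured hypoxia-induced genes outside the module, 6 rose and 0 fell, 32 differences were above 0, and the median was 0.44, beside 1.85% of all genes called higher and 49.0% above 0. Their median deviation was 0.33, 0.69 and 0.35 in the Norrin replicates 1, 2 and 3, highest in the pool that stood apart. Without that pool 3 were called higher (Vldlr, Plod2 and Car12), 30 were above 0 and the median was 0.34. The largest were Vldlr, the very low density lipoprotein receptor (2.21 ± 0.23, adjusted p = 0.00048), the glycogen-targeting subunit Ppp1r3c (1.64, 0.0470), the collagen lysyl hydroxylase Plod2 (1.31, 0.0030) and the carbonic anhydrase Car12 (1.09, 0.0098). Vegfa, the classic angiogenic HIF target, read 8.87, 9.17 and 8.92 in wild type and 9.33, 9.81 and 9.56 in Norrin. Its groups did not overlap, but its difference of 0.58 did not pass (adjusted p = 0.1845).

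Of 10 genes of the oxygen-sensing system, 3 rose and 0 fell. Epas1, which encodes the HIF-2 alpha subunit, read 10.58, 10.62 and 10.63 in wild type and 12.69, 12.21 and 12.42 in Norrin (1.83 ± 0.24, adjusted p = 0.0018). Egln3, a sensor gene that is itself HIF-induced, read 6.37, 6.65 and 6.33 in wild type and 7.85, 9.28 and 8.18 in Norrin (1.99 ± 0.32, adjusted p = 0.0051). Both were without overlap, and Egln1 rose by 0.54 (adjusted p = 0.0304). Hif1a, the HIF-1 alpha subunit, read 11.84, 11.98 and 11.95 in wild type and 11.49, 11.87 and 11.998 in Norrin, which overlapped (-0.14, adjusted p = 0.9391). Arnt, the shared beta subunit, differed by 0.03 and Vhl by 0.25, neither past the threshold. HIF alpha subunits are controlled as proteins, which arrays do not measure. Without the Norrin E10.5 replicate 2, Epas1 (1.95, adjusted p = 0.0033) and Egln3 (1.57, 0.0065) passed and Egln1 did not (0.52, 0.0939).

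Of 11 other glycolysis genes, 0 rose and 2 fell. Bpgm, which makes 2,3-bisphosphoglycerate in red cells, read 9.60, 10.15 and 10.05 in wild type and 7.50, 8.19 and 7.51 in Norrin (-2.20 ± 0.24, adjusted p = 0.00059). Pklr, the liver and red cell pyruvate kinase, fell by 0.85 on the log2 scale (adjusted p = 0.0220). Without the Norrin E10.5 replicate 2 only Bpgm passed, and Pklr had an adjusted p of 0.0506. Both genes fell in the pools where the erythroid markers fell, and the part of red cell content was not tested.

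Of 16 genes for the fate of pyruvate and lactate, 1 rose and 2 fell. The monocarboxylate transporter Slc16a1 read 12.86, 12.14 and 12.68 in wild type and 13.80, 13.42 and 13.96 in Norrin (1.16 ± 0.21, adjusted p = 0.0088). Another transporter of that family, Slc16a7, read 8.87, 9.44 and 8.85 in wild type and 6.45, 6.68 and 6.31 in Norrin (-2.57 ± 0.16, adjusted p = 1.2e-05). The groups of both were far from overlap, in opposite directions. Pdhx, a subunit of the pyruvate dehydrogenase complex, fell by 0.77 on the log2 scale (adjusted p = 0.0301). Of 15 genes of the tricarboxylic acid cycle, 0 rose and 2 fell, Dlst (-0.57, adjusted p = 0.0447) and Fh1 (-0.46, 0.0413), and 14 differences were below 0, with a median of -0.27. Without the Norrin E10.5 replicate 2, 0 genes of the cycle passed in limma (Dlst 0.1268 and Fh1 0.1306), and Slc16a1, Slc16a7 and Pdhx passed, with Pdk4 and Mpc1 also called lower.

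At E8.5, 0 of the 31 genes passed the adjusted threshold in limma, beside 0.055% of all genes called higher and 0.022% called lower. At an unadjusted p under 0.05, 3 were higher (Hk2, P4ha1 and Higd1a) and 1 lower (Pgk1), beside 3.31% and 3.91% of all genes. The medians were 0.05 for glycolysis and 0.22 for the other hypoxia genes, beside -0.02 for all genes. The latter median was 0.04 without the Norrin E8.5 replicate 2, the pool with raised trophoblast markers, and -0.0024 without both E8.5 replicates 2, an alternative chosen after the data were seen. P4ha1 read 9.61, 9.92 and 9.77 in wild type and 10.21, 10.60 and 10.67 in Norrin. The groups did not overlap, and the difference of 0.73 ± 0.14 had an adjusted p of 0.0933 (0.0104 with the block).

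Hk2 read 9.44, 9.67 and 8.94 in wild type and 10.40, 9.996 and 9.32 in Norrin at E8.5, which overlapped (0.56 ± 0.25, adjusted p = 0.6783). Ddit4 read 7.03, 7.11 and 7.16 in wild type and 7.50, 7.28 and 7.72 in Norrin, without overlap (0.40, adjusted p = 0.7366). Slc2a1 differed by -0.09, Adm by -0.13, Kdm3a by 0.24, Pfkl by 0.22 and Pfkfb3 by 0.37, all with overlapping groups. Higd1a, whose groups overlapped at E10.5, read 10.32, 10.03 and 10.08 in wild type and 10.72, 10.67 and 10.35 in Norrin (0.44, adjusted p = 0.6727). Norrin was higher without overlap for 5 of 31 genes and lower for 3, beside 5.89% and 6.02% of all genes. Within each of the 3 replicate numbers, 3 glycolysis and 4 other hypoxia genes were higher and 4 and 1 lower, beside 19.7% and 24.8% of all genes.

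The difference between the Norrin effects at the 2 stages was tested as an interaction. In limma 0 of the 31 genes passed, beside 0.0385% of all genes called higher and 0.055% called lower, while 15 had an unadjusted p under 0.05, all with an interaction above 0. Over all genes 3.15% were higher and 3.86% lower at that p. Of the 15, Pgk1 had effects of opposite sign, -0.26 at E8.5 and 0.17 at E10.5, and so had 8 others with a negative effect at E8.5. The median interaction was 0.43 for glycolysis and 0.70 for the other hypoxia genes. Adm had the largest, 1.73 ± 0.46 (adjusted p = 0.2607), then Ddit4 with 1.62 ± 0.34 (0.1259) and Pfkfb3 with 1.23 ± 0.52 (0.6518). With the replicate number as a block, 4 genes passed: Hk2 (adjusted p = 0.0341), Ddit4 (0.0307), Adm (0.0304) and Bhlhe40 (0.0116). The block also raised the calls over all genes, to 0.819% higher and 1.25% lower. Of the genes in the other lists, Vldlr and Slc16a7 passed without the block (adjusted p = 0.0372 and 0.0014 in limma). So did 1 of the 15 endothelial markers, called higher.

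Between the stages, many of the other hypoxia genes were higher at E10.5 in both genotypes, while glycolysis genes moved both ways in wild type. The arrays of each stage were normalized in a run of their own: pairs of arrays shared 26 to 93 identical values within a stage and 0 across stages. Stage and run therefore cannot be told apart, and both genotype groups of a stage share it. In wild type, 5 glycolysis genes were called higher at E10.5 and 4 lower, and 7 other hypoxia genes higher and 0 lower, beside 25.4% and 7.12% of all genes. In Norrin the calls were 7 higher and 1 lower, and 10 higher and 0 lower, beside 28.2% and 9.68%. The median of all genes moved by 0.14 in wild type, and by -0.15 when each array was centred on its median.

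In wild type the hypoxia genes Bhlhe40 (1.68 ± 0.31, adjusted p = 0.0017), Ndrg1 (1.37, 0.0339), P4ha2 (1.30, 0.00047) and Mxi1 (1.14, 0.00065) had the largest increases, and Slc2a3 (-1.23, 0.0016), Hk2 (-0.75, 0.0353), Pfkfb4 (-0.73, 0.0087) and Pgam1 (-0.41, 0.0384) were lower at E10.5. The Slc2a3 probe set used averaged 14.60 in wild type at E8.5, within the range of the array maxima, and its other probe sets differed by -1.505, -2.50 and -2.88. In Norrin the largest increases were those of Bhlhe40 (2.89 ± 0.31, adjusted p = 3.8e-05), Ddit4 (2.64, 1.3e-05), Ndrg1 (2.06, 0.0036) and Mxi1 (1.86, 2.1e-05), and Pfkfb4 alone was called lower (-0.78, 0.0050). With arrays centred on their median the wild type split for glycolysis was 2 higher and 8 lower and the Norrin split 3 and 2. Over all genes the share of higher among the calls went from 78.1% to 34.7% in wild type and from 74.4% to 35.0% in Norrin. The median of the other hypoxia genes stayed above 0 under that centring, at 0.64 in wild type and 1.33 in Norrin. Both stage comparisons share pools with the Norrin comparisons and are set side by side only as values.

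**Figure D5:**
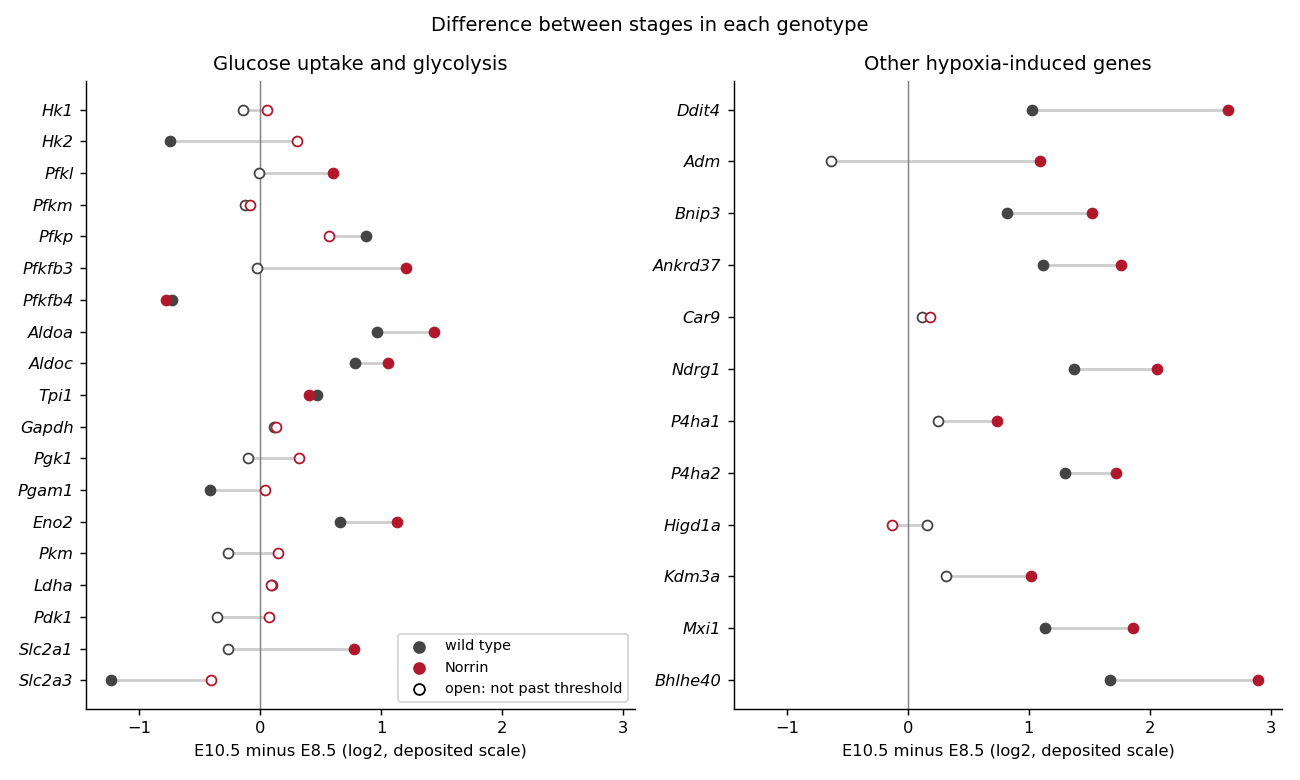
E10.5 minus E8.5 on the deposited log2 scale for each of the 31 genes in wild type (dark) and Norrin (red); filled points passed an adjusted p of 0.05 in limma. Bhlhe40 lies farthest right in both genotypes at 1.68 and 2.89, and Slc2a3 farthest left in wild type at -1.23; the zero line depends on the scaling of each stage.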

How the data were processed

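Expression was measured on 12 arrays, 1 per pool of yolk sacs. The values deposited by the authors are log2 expression values; the submitters' processing notes name RMA without a version. RMA subtracts background, makes the arrays' distributions equal and fits 1 value per probe set. Names came from GEO's annotation of the array: of 45101 probe sets, 64 were controls, 34945 had 1 gene, 932 several and 9160 none. Control probe sets were left out, except for Gapdh, whose only probe sets of its own were 3 controls. One probe set per gene, the one with the highest mean, left 18194 genes.

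limma 3.58.1 in R 4.3.3 estimated the 4 group means from the 12 arrays in 1 model, with 8 residual degrees of freedom and a prior worth 4.17. Tests were two-sided, adjusted by Benjamini-Hochberg over all genes of a contrast, with a threshold of 0.05; every adjusted p is from limma unless an exact test is named. The script was tested on simulated data. With arrays there is no read depth, and the number of arrays limits the precision.

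The replicate numbers are shared between genotypes in the labels, which do not say what they mark. Deviations from the group means were correlated between wild type and Norrin pools. For same-numbered pools the E8.5 correlations were 0.73, 0.32 and 0.73, and the E10.5 correlations 0.51, 0.21 and 0.22. For differently numbered pools the E8.5 values lay between -0.72 and 0.30, and the E10.5 values between -0.35 and 0.16. The lowest same-numbered correlations were therefore only slightly above the highest of the others. A fit with the number as a block within each stage is given where it changes a call. It leaves fewer residual degrees of freedom than the fit without the block.

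The members and gene lists were chosen with earlier results of these data known. Pool values are given for members past the threshold in a Norrin contrast or the interaction and for members of the same step or role compared with them. From each other list except the cell type marker lists up to 4 genes with the largest difference among those past the threshold are named. For stage differences up to 4 members per direction and genotype are named. Pool values of other members, and Vegfa, Hif1a, Arnt, Vhl, Tpbpa, Trib3, Asns, Hspa1a, Pdk4, Mpc1 and the marker genes, were chosen after their values were seen. Alternatives covered the block, array weights, scaling, probe set choice, a filter on low genes, the prior and each array left out; leaving out both E8.5 arrays numbered 2 was added after the data were seen.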

Additional observations from a re-analysis of the deposited data

How the results depend on the processing

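Counts are given as glycolysis then other hypoxia genes. With the replicate number as a block within each stage, calls were 1 hypoxia gene higher at E8.5, 8 and 10 higher and 1 glycolysis gene lower at E10.5, and 1 and 3 in the interaction; this block cannot be fitted to the stage differences. Array weights gave 6 and 4 higher and 3 and 1 lower at E8.5, and 9 and 9 higher and 1 glycolysis gene lower at E10.5. They gave 8 and 7 in the interaction, 8 glycolysis genes lower between stages in wild type, and a hypoxia median of 1.38 between stages in Norrin. Over all genes they called 5145 at E8.5, 2316 at E10.5 and 2727 in the interaction, against 14, 741 and 17. The weights were 5.14 and 8.02 in the wild type and Norrin E8.5 replicates 2 and 0.22 to 0.45 in the other E8.5 pools. The weighted calls at E8.5 therefore rest mostly on 1 pool per genotype.

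Between stages in wild type, centring on the median gave 2 glycolysis genes higher and 8 lower with a median of -0.39, and a hypoxia median of 0.64; joint quantile normalization gave a glycolysis median of -0.26. Centring called 13.5% of all genes higher and 25.4% lower. The filter on low genes gave 3 higher and 2 lower, beside 15.5% and 5.58% of all genes in that fit. Leaving out both E8.5 arrays numbered 2 gave 2 and 2, beside 18.5% and 3.55%. A block across stages, array weights, centring and joint quantile normalization each called 1 hypoxia gene lower. Over all genes they called 7.87%, 20.6%, 25.4% and 20.1% lower. In Norrin, centring gave 3 higher and 2 lower with medians of 0.0137 and 1.33, the filter 4 higher with a median of 0.14, and leaving out both E8.5 arrays numbered 3 a median of 0.14. Over all genes, centring called 14.8% higher and 27.5% lower in Norrin, and the filter 17% higher. Fewer genes or arrays enter some of these fits. Otherwise the cause was not tested.

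Leaving out 1 array in turn, at E10.5 1 to 5 glycolysis and 2 to 6 hypoxia genes were called higher and 0 to 1 and 0 to 0 lower, with medians of 0.28 to 0.46 and 0.61 to 1.12. Over all genes 0.885% to 2.34% were called higher at E10.5. At E8.5 0 genes were called, with medians of 0.01 to 0.07 and 0.04 to 0.27. In the interaction 0 to 1 and 0 to 1 were called higher and 0 lower, with medians of 0.34 to 0.44 and 0.51 to 0.90. Over all genes 0.011% to 0.066% were called higher in the interaction. Between stages in wild type, 4 to 5 and 6 to 7 were higher and 2 to 5 and 0 lower. The medians were -0.16 to -0.04 and 0.71 to 1.03. Of all genes, 20.1% to 26.7% were called higher there and 3.57% to 7.85% lower. In Norrin, 5 to 8 and 9 to 10 were higher and 1 to 2 and 0 lower, with medians of 0.14 to 0.40 and 1.46 to 1.70. Here 22.8% to 30.8% of all genes were called higher and 5.76% to 11.1% lower. For single genes at E10.5, 668 of 739 values kept their side of the threshold and their direction or were never called, 39 newly passed and 32 no longer passed. Among values called in neither fit, 15 changed sign at E10.5 and 39 at E8.5. No called value changed sign in the alternatives run.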

Other observations

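The targets of ATF4, a transcription factor of the amino acid stress response, were read as a separate list. Of 12 measured genes, 0 passed at E10.5 in limma (1 higher and 1 lower at an unadjusted p under 0.05), and the median difference was 0.01. Trib3 read 7.77, 8.14 and 8.19 in wild type and 7.76, 8.91 and 8.17 in Norrin, and Asns, asparagine synthetase, read 9.76, 9.39 and 10.42 and 9.83, 10.28 and 9.55. Both overlapped between the groups. These genes were named after their values were seen.

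Of 12 immediate early and heat shock genes, 3 rose at E10.5 and 0 fell. Jun read 7.99, 8.38 and 8.16 in wild type and 10.18, 10.58 and 10.05 in Norrin (2.09 ± 0.28, adjusted p = 0.0018). Egr1 differed by 2.03 (adjusted p = 0.0153) and Ier3 by 1.68 (0.0134), and the Norrin replicate 2 was the highest pool for each of the 3. All 3 passed without that pool, with adjusted p-values of 0.0062 for Jun, 0.0496 for Egr1 and 0.0201 for Ier3. Hspa1a, a heat shock chaperone, read 6.43, 11.06 and 7.61 in Norrin and 6.58, 7.25 and 7.52 in wild type.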
